A study of Mus musculus with 8 samples.

Results

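The Sprr2 genes encode small proline-rich proteins, and the mouse carries them as a run of neighbouring genes on chromosome 3. Their probes were taken by name, as every non-control probe of the array whose gene name starts with Sprr2. This gave 13 probes for 12 of the 29608 gene names on the array, namely Sprr2a1, Sprr2a2, Sprr2a3 (2 probes), Sprr2b, Sprr2d, Sprr2e, Sprr2f, Sprr2g, Sprr2h, Sprr2i, Sprr2j-ps and Sprr2k. The family was chosen after its response to PACAP on these same arrays was known, so its ratios and levels are given below as a description, and no test was made on them.

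Small proline-rich proteins are precursors of the cornified envelope, the protein shell that keratinocytes build under their membrane as they die at the skin surface. Transglutaminases cross-link them with loricrin, involucrin and other precursors, and the epidermal differentiation complex holds the genes for many of these proteins side by side. Sprr2 genes are known to be switched on in epithelia under inflammation, wounding and barrier damage, and Sprr2a protein has been described as antibacterial. PACAP is a neuropeptide of nerve endings, and PAC1R, encoded by Adcyap1r1, is its selective receptor.

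The mice were C57BL/6 WT mice or mice lacking the receptor, labelled Adcyap1r1 -/- and called PAC1R KO mice, at 9 to 10 weeks of age. The deletion is carried by every cell, so it is not particular to skin. All mice were anaesthetised and had 5 µL of saline with 0.1% BSA injected into the skin of the footpad, with PACAP at 1e-07 mol/L or as vehicle alone. The skin of the forepaws was taken 30 or 60 min later, which gave 8 RNA samples, 1 for each genotype, time and treatment. A PACAP sample and its vehicle sample were hybridised together on 2 arrays with swapped dyes. The 2 arrays carry the same RNA and count as 1 replicate, so the spread between them is technical, and a spread between animals was not measured. Whether the RNA of several mice was pooled is not given in the sources used here.

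The 4 WT arrays were on 1 slide and the 4 KO arrays on the other, and slide and genotype therefore cannot be told apart. Between 54.0% and 94.5% of spots per array and channel were well above background, 0 were saturated and 0 of the Sprr2 spots carried an outlier flag. Markers of basal and suprabasal keratinocytes and Krt9, the keratin of palm and sole epidermis, were all above background. Hair shaft genes, which belong to hairy skin, were each above background on 1 or more arrays as well. Their values are given with those of the other tissues. Adcyap1r1 had a log2 level of 8.28 (vehicle) and 8.26 (PACAP) in WT mice at 30 min and 8.67 and 8.76 at 60 min. In KO mice it was 7.98 and 7.91 at 30 min and 8.56 and 8.42 at 60 min, lower than WT in each matched sample but still measured, so this probe does not separate the genotypes on its own. In these whole-skin samples, fewer cells of a type and less RNA per cell cannot be told apart.

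The probes are 60 bases long and lie in gene order on the plus strand of mm9, the build of the files, from chr3:92027346-92027405 for Sprr2a1 to chr3:92237790-92237849 for Sprr2k. The genes resemble each other, so how far the probes share letters decides which transcripts they could read. The longest stretch shared by any pair of Sprr2 probes was 18 bases, between Sprr2i (chr3:92213134-92213193) and Sprr2j-ps (chr3:92223245-92223304). Sprr2f (chr3:92170259-92170318), the probe with the highest mean ratio in KO mice at 30 min, where its vehicle signal was above background on 1 of 2 arrays, shared 15 bases with Sprr2h (chr3:92191160-92191219), which changed little. Both pairs are shown as 30-base stretches with the shared letters in capitals, at chr3:92213155-92213184, chr3:92223275-92223304, chr3:92170279-92170308 and chr3:92191160-92191189 in turn.
Sprr2i: tttttcATTTCCTGAATAAAGTACcgtctt
Sprr2j-ps: cactggtgttctATTTCCTGAATAAAGTAC
Sprr2f: cagtatgACATTTTTCAAATCTctctgtca
Sprr2h: ACATTTTTCAAATCTttctgacattttgcc
The Sprr2a2 probe stands apart, since it shared 20 or more bases with 6 probes of other names on the array, while none of the other 12 Sprr2 probes did so with any. The Sprr2a1 probe was drawn from a cDNA clone rather than the gene's reference transcript. How far one probe reads the transcript of a neighbouring gene was not tested.

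RefSeq promoter sequences, from 250 bases before to 50 bases after each gene's start on GRCm38.p6, were at hand for 10 of the 12 gene names (not for Sprr2g and Sprr2j-ps). A few short motifs were looked for on both strands, chosen after the ratios had been seen. They were TGANTCA, the AP-1 site, ATGCAAAT, the octamer bound by POU factors, TATAAA, the core of the TATA box, and TTCNNNGAA, the STAT site. AP-1, octamer and TATA motifs were each found in 7 of the 10 Sprr2 promoters, against 7.81%, 1.74% and 13.6% of all 32851 promoters. The same 7 genes (Sprr2b, Sprr2d, Sprr2e, Sprr2f, Sprr2h, Sprr2i and Sprr2k) held all 3 motifs, a combination found in 16 promoters in all. The STAT motif was found in 2 of the 10, Sprr2a3 and Sprr2i, against 8.3% of all promoters. The 250 bases upstream of 5 genes are shown, with AP-1, octamer and TATA matches in capitals, because Sprr2e, Sprr2f and Sprr2i were up-regulated in 3 comparisons while Sprr2h and Sprr2b were so in none.
Sprr2e, chr3:92351893-92352142: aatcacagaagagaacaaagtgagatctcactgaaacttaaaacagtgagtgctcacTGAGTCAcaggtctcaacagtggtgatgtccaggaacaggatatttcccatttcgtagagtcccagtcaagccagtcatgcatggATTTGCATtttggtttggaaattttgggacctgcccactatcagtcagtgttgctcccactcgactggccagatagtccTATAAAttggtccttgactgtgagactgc
Sprr2f, chr3:92364937-92365186: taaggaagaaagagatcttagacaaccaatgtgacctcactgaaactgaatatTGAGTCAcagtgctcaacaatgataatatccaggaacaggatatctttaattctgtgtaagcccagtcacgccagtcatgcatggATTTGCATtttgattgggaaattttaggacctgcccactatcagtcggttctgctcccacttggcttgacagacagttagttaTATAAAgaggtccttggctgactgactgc
Sprr2i, chr3:92407741-92407990: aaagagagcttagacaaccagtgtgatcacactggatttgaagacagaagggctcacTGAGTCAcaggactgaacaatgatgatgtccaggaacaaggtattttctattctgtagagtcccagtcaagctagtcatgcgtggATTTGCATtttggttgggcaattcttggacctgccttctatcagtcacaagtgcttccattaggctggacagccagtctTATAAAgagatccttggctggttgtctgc
Sprr2h, chr3:92385435-92385684: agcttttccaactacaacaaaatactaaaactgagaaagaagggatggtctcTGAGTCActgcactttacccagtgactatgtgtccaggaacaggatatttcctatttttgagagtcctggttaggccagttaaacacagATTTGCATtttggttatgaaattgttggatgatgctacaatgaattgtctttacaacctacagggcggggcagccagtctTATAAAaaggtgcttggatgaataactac
Sprr2b, chr3:92316455-92316704: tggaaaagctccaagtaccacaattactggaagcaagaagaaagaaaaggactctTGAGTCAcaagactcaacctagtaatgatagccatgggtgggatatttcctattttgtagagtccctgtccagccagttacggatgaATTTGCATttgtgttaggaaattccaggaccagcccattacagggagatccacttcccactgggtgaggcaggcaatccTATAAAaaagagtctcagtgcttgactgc
The TATA match began 29 bases before the start in all 7 genes, the octamer between 108 and 112 bases before it, and the first AP-1 match between 193 and 198 bases before it. Sprr2h and Sprr2b held all 3 as well, while Sprr2a3, counted at 60 min, held none of the 3. Whole upstream windows of these 7 genes were identical at between 60.8% and 89.3% of aligned positions. Sprr2d and Sprr2e were the closest pair, at 89.3%, followed by Sprr2h and Sprr2k at 80.6%.

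Ratios are PACAP over vehicle, as the mean of both arrays, with the value of the array that had PACAP in Cy5 and then that of the array with PACAP in Cy3 as their spread. A probe was counted as up-regulated if this mean reached 2.0-fold, and as down-regulated if it was no more than 0.5-fold. Both arrays also had to go the same way, each with a Feature Extraction p under 0.01. That p speaks of the signal on 1 array and not of animals. Of the 13 Sprr2 probes, 0 were up-regulated in WT mice at 30 min, 5 in KO mice at 30 min, 6 in WT mice at 60 min and 8 in KO mice at 60 min. Over all probes of the array the shares up-regulated were 0.254%, 0.601%, 0.583% and 0.142% in the same order, given beside the family's counts only as their background since the family was picked on these ratios. None of the 13 was down-regulated in any of the 4 comparisons, where 0.0964%, 0.107%, 0.109% and 0.15% of all probes were. The median over the 13 probes lay at 0.949-fold (30 min) and 2.01-fold (60 min) in WT mice, and at 1.55-fold and 2.14-fold in KO mice. On the log2 scale these 4 medians are -0.08, 1.00, 0.64 and 1.1, while the median over all probes was 0 in each comparison. Other settings moved some of these values. With normexp, loess and Aquantile ratios 3 rather than 5 probes were counted in KO mice at 30 min, and the median log2 ratio was 0.41 in WT mice at 60 min. With only the 9 probes above background in both channels on both arrays, 3 were counted in KO mice at 30 min as well.

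**Figure D1:**
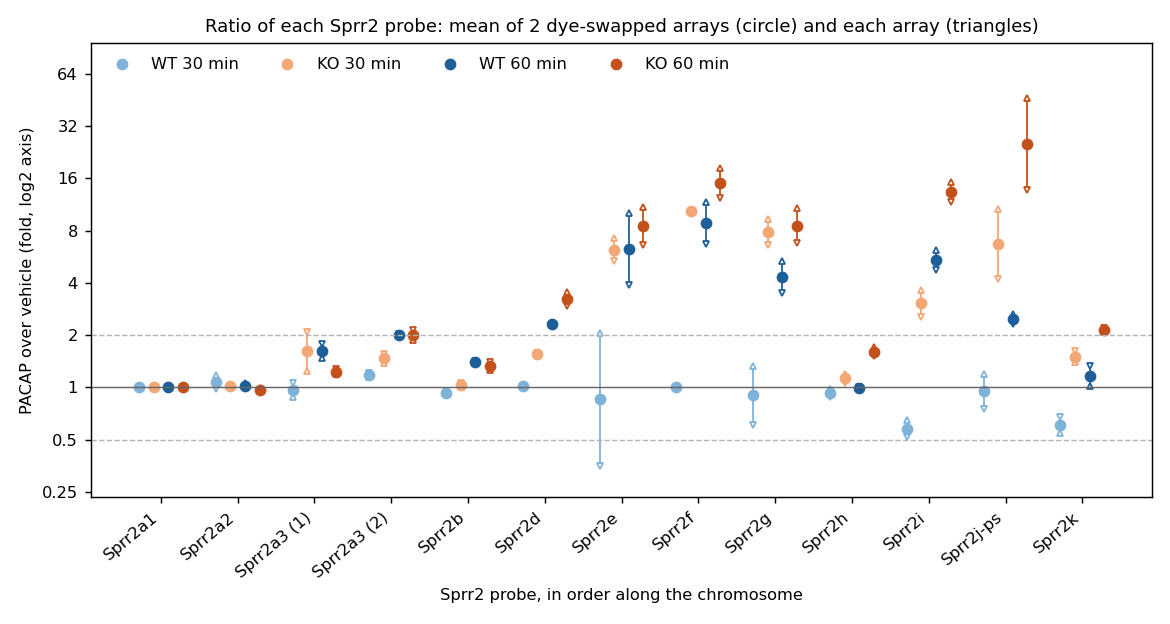
PACAP over vehicle for each of the 13 Sprr2 probes, on a log2 axis of fold, in the order of the genes. Circles are the mean of 2 dye-swapped arrays, upward triangles the array with PACAP in Cy5, downward triangles the array with PACAP in Cy3, and dashed lines the 2-fold and 0.5-fold thresholds; the WT circles at 30 min lie between 0.577 and 1.18, and the KO circles at 60 min reach 25.4.

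Sprr2e, Sprr2f and Sprr2g are neighbours, and all 3 were up-regulated in the same comparisons, KO mice at both times and WT mice at 60 min. Sprr2e and Sprr2f encode envelope precursors, while Sprr2g is listed in RefSeq as a transcribed pseudogene. The log2 level of Sprr2f was 6.00 (vehicle) and 6.00 (PACAP) in WT mice at 30 min, 6.37 and 7.98 in KO mice at 30 min, 6.17 and 7.04 in WT mice at 60 min, and 6.14 and 7.94 in KO mice at 60 min. The 3 PACAP samples other than that of WT mice at 30 min were thus the 3 highest of the 8. As ratios, Sprr2f was 10.3-fold in KO mice at 30 min (10.6 and 10.1 on the arrays), 8.85-fold in WT mice at 60 min (11.7 and 6.68) and 15.1-fold in KO mice at 60 min (18.4 and 12.4). In WT mice at 30 min Sprr2f was not well above background in either sample on either array, and its ratio had been set to 1 by the software. In the other vehicle samples it was above background on 1 of 2 arrays, so those folds rest in part on a signal near background. The levels, which carry an offset of 50 intensity units, rise less than the ratios for such dim probes.

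Sprr2e had log2 levels of 6.26 (vehicle) and 6.22 (PACAP) in WT mice at 30 min, 6.50 and 7.80 in KO mice at 30 min, 6.53 and 7.68 in WT mice at 60 min, and 6.98 and 9.21 in KO mice at 60 min. KO mice given PACAP for 60 min had the highest level, and the vehicle samples of the genotypes lay within 0.45 of each other at each time. The ratio was 6.22-fold in KO mice at 30 min (7.23 and 5.35), 6.28-fold in WT mice at 60 min (10.1 and 3.91) and 8.47-fold in KO mice at 60 min (10.9 and 6.59). The arrays of WT mice at 60 min differed by more than these 3 means did. In WT mice at 30 min the arrays went opposite ways, at 2.06-fold and 0.355-fold, around a mean of 0.854-fold.

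The Sprr2g levels were 6.62 (vehicle) and 6.59 (PACAP) in WT mice at 30 min, 6.99 and 9.14 in KO mice at 30 min, 6.63 and 7.57 in WT mice at 60 min, and 7.17 and 9.61 in KO mice at 60 min. Both PACAP samples of KO mice stood above all 6 others. Its ratio was 7.86-fold in KO mice at 30 min (9.31 and 6.63) and 8.57-fold at 60 min (10.8 and 6.81), against 4.33-fold in WT mice at 60 min (5.37 and 3.49). The WT ratio at 30 min was 0.900-fold, with 1.33 and 0.611 on the arrays. SDs between the 2 arrays of a sample were at most 0.43 for Sprr2f and lower for Sprr2e and Sprr2g.

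Sprr2i and Sprr2j-ps, whose probes share the 18 bases shown above, lie beyond Sprr2h along the cluster and had higher ratios at 60 than at 30 min in KO mice. Sprr2i encodes an envelope precursor, and Sprr2j-ps carries a pseudogene name. The levels of Sprr2i were 7.49 (vehicle) and 7.07 (PACAP) in WT mice at 30 min, 6.52 and 7.16 in KO mice at 30 min, 6.90 and 8.41 in WT mice at 60 min, and 6.84 and 9.67 in KO mice at 60 min. At 60 min both PACAP samples were higher than every other sample, whereas at 30 min the vehicle sample of WT mice was the highest. The ratio was 3.06-fold in KO mice at 30 min (3.66 and 2.55), 5.41-fold in WT mice at 60 min (6.17 and 4.75) and 13.3-fold in KO mice at 60 min (15.2 and 11.7). In WT mice at 30 min Sprr2i was 0.577-fold (0.645 and 0.515), short of the 0.5-fold threshold, with a Feature Extraction p under 0.01 on both arrays.

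For Sprr2j-ps the levels were 6.05 (vehicle) and 6.05 (PACAP) in WT mice at 30 min, 6.16 and 6.83 in KO mice at 30 min, 5.96 and 6.24 in WT mice at 60 min, and 6.11 and 8.22 in KO mice at 60 min. One sample, KO mice given PACAP for 60 min, stood well above the rest. This was also the largest ratio of the family, 25.4-fold, though its arrays gave 46.7 and 13.8 and the vehicle signal was above background on 1 of them. In KO mice at 30 min the ratio was 6.75-fold (10.7 and 4.24). WT mice had a ratio of 0.949-fold at 30 min (1.20 and 0.750) and of 2.48-fold at 60 min (2.66 and 2.31), where a Feature Extraction p of 0.11 and 0.095 kept it from being counted. Sprr2i and Sprr2j-ps thus both had their largest ratio in KO mice at 60 min, but in WT mice at 60 min only Sprr2i was counted.

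**Figure D2:**
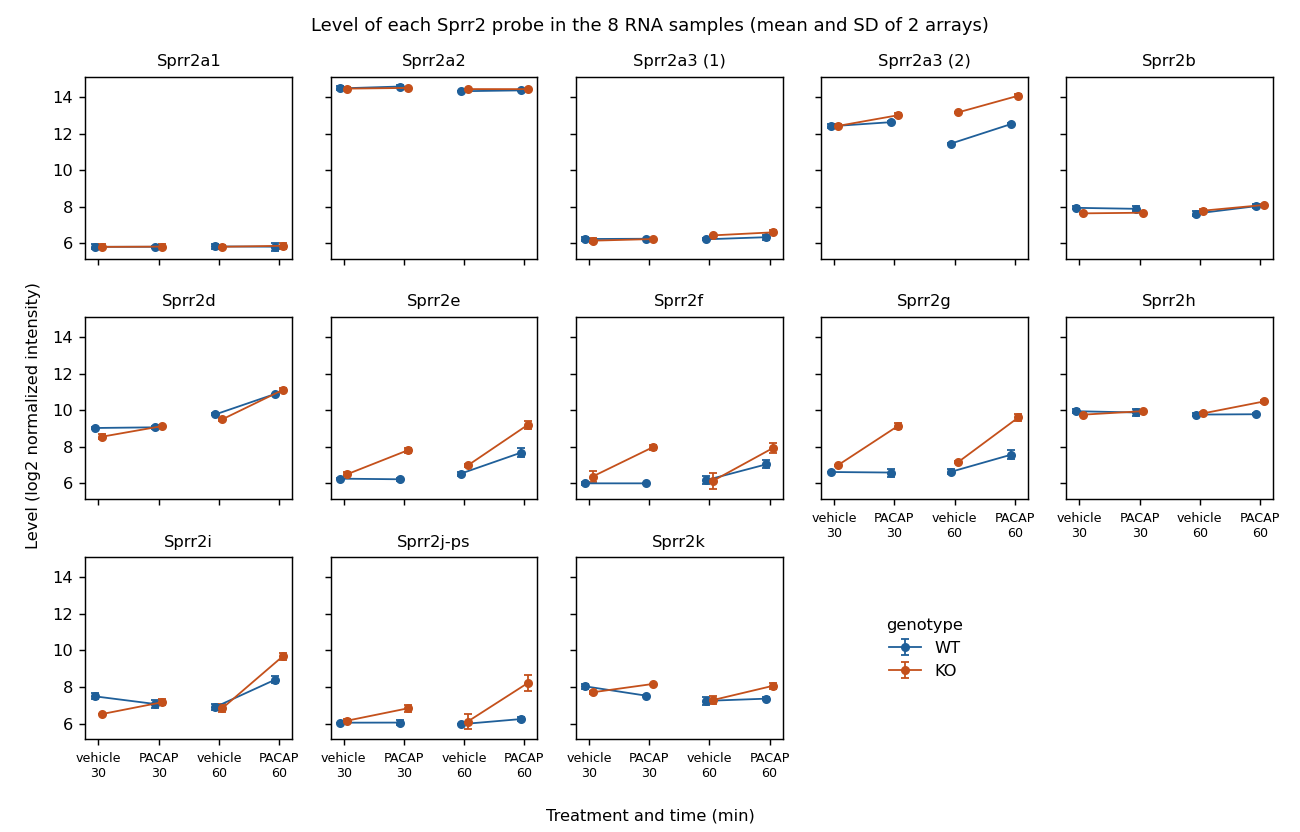
Log2 level of each Sprr2 probe in the 8 RNA samples, 1 panel per probe, with vehicle and PACAP samples at 30 and 60 min on the x axis, WT mice in blue and KO mice in orange. Points are the mean and bars the SD of 2 dye-swapped arrays; (1) and (2) are the 2 Sprr2a3 probes, and levels of different probes are not to be set against each other. KO mice given PACAP for 60 min have the highest level for Sprr2e (9.21), Sprr2g (9.61) and Sprr2i (9.67).

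Sprr2d, the brighter Sprr2a3 probe and Sprr2k, all envelope precursors, moved less, and were counted at 60 min only. The Sprr2d levels were 9.03 (vehicle) and 9.07 (PACAP) in WT mice at 30 min, 8.55 and 9.13 in KO mice at 30 min, 9.77 and 10.90 in WT mice at 60 min, and 9.51 and 11.11 in KO mice at 60 min. All 4 samples taken at 60 min, vehicle included, were above the 4 taken at 30 min. The ratio was 2.33-fold in WT mice at 60 min (2.35 and 2.31), 3.21-fold in KO mice at 60 min (3.53 and 2.93), 1.55-fold in KO mice at 30 min (1.53 and 1.57) and 1.01-fold in WT mice at 30 min.

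Sprr2a3 was read by 2 probes, which were not alike. The brighter one (chr3:92093100-92093159) was 2.01-fold in WT mice (1.99 and 2.03) and 2.01-fold in KO mice (1.88 and 2.15) at 60 min, barely inside the threshold, and 1.18-fold and 1.47-fold at 30 min. Its levels were 12.39 (vehicle) and 12.62 (PACAP) in WT mice at 30 min, 12.41 and 13.00 in KO mice at 30 min, 11.45 and 12.52 in WT mice at 60 min, and 13.16 and 14.07 in KO mice at 60 min. At 60 min the vehicle sample of KO mice was above the PACAP sample of WT mice, so the difference between the genotypes there exceeded that with PACAP in WT mice. The other probe (chr3:92089312-92089371), which lists a transcript shared with Sprr2b, was between 0.962-fold and 1.63-fold and was counted in none of the comparisons.

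Sprr2k was 2.14-fold in KO mice at 60 min (2.08 and 2.20) and 1.5-fold at 30 min, against 0.604-fold in WT mice at 30 min (0.544 and 0.671) and 1.16-fold at 60 min. Its levels in the same order of samples as above were 8.03 (vehicle) and 7.53 (PACAP), 7.71 and 8.16, 7.24 and 7.36, and 7.28 and 8.06. Sprr2k and Sprr2i were the only Sprr2 probes with a Feature Extraction p under 0.01 on both arrays in WT mice at 30 min, and both lay under 1-fold there.

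The 5 remaining probes were counted in no comparison, and besides the dimmer Sprr2a3 probe these were Sprr2a1, Sprr2a2, Sprr2b and Sprr2h. Sprr2h, the neighbour of Sprr2g, had ratios of 0.929-fold and 0.996-fold in WT mice and 1.13-fold and 1.60-fold (1.71 and 1.51) in KO mice at 30 and 60 min. Its level lay between 9.76 and 9.95 in all samples but that of KO mice given PACAP for 60 min, at 10.48. Sprr2b, also an envelope precursor, was 0.931-fold and 1.41-fold in WT mice and 1.03-fold and 1.33-fold in KO mice, with levels between 7.62 and 8.09. Sprr2a2 lay between 0.969-fold and 1.07-fold with levels between 14.31 and 14.57, which belong to the probe that shares letters with 6 others. The Sprr2a1 probe was not well above background in any sample on any array, and its ratio had been set to 1 throughout. The bright Sprr2a2 probe lists further transcripts besides its first, so its signal need not be that of Sprr2a2 alone. Whether the Sprr2a1 transcript was absent cannot be told from its dim probe.

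**Figure D3:**
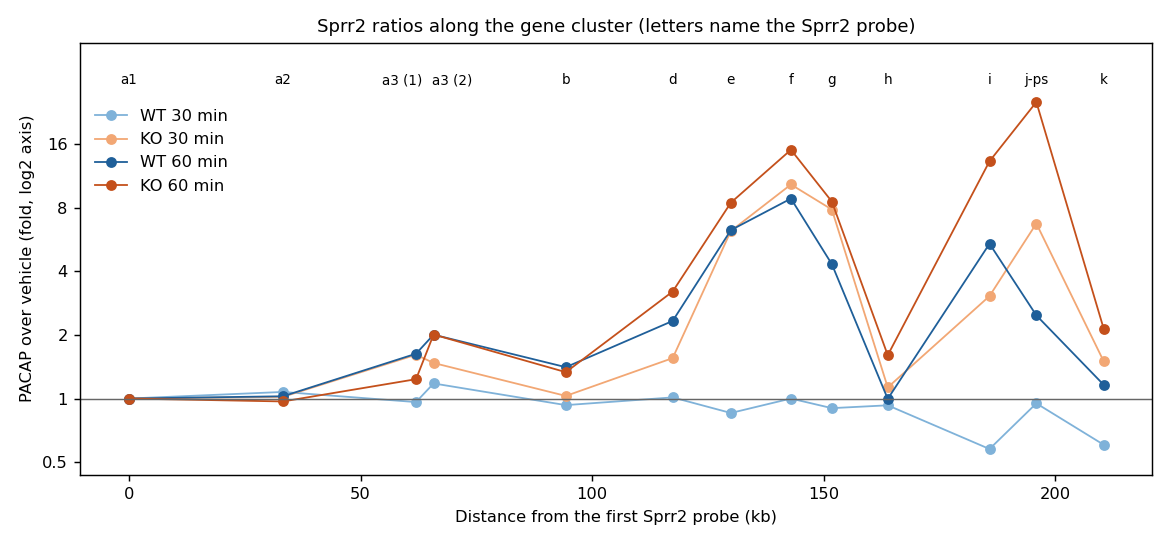
PACAP over vehicle, on a log2 axis of fold, against the distance of each Sprr2 probe from the first one in kb, with 1 line per comparison and letters naming the probe. In KO mice at both times and WT mice at 60 min the ratios peak over e, f and g and again over i and j-ps, with h between the peaks at 1.60-fold or less, while the line of WT mice at 30 min has no such peaks and is lowest at i (0.577-fold).

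The probes counted in KO mice at 30 min lay in 2 groups of neighbours along the chromosome, Sprr2e to Sprr2g and Sprr2i to Sprr2j-ps, with Sprr2h between them. At 60 min the brighter Sprr2a3 probe and Sprr2d were counted too in both genotypes, Sprr2k in KO mice, and Sprr2j-ps in KO mice but not in WT mice. Sprr2e, Sprr2f, Sprr2g and Sprr2i were each up-regulated in 3 of the 4 comparisons. Another 3 probes were so in 2 comparisons, and 1, Sprr2k, in 1.

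The genotypes were set side by side at each time. At 30 min the median difference between KO and WT ratios over the 13 probes was 0.75 on the log2 scale, and for 11 of them both KO arrays were above both WT arrays, as for 20.5% of all probes. That count includes Sprr2f, whose WT ratio was not measured and for which no difference is given. Over the 11 probes that were well above background on at least 1 array in each genotype it was 10. Differences above 2 were those of Sprr2g (3.13, and between 2.32 and 3.93 over the pairs of arrays), Sprr2e (2.86, between 1.38 and 4.35), Sprr2j-ps (2.83, between 1.82 and 3.84) and Sprr2i (2.41, between 1.98 and 2.83). These ranges overlap, so the 4 probes have no order. In WT mice at 30 min Sprr2e, Sprr2g and Sprr2j-ps were above background on 1 of 2 arrays, and their differences rest in part on signals near background. At 60 min the median difference was 0.46, with 7 of 13 probes above on both arrays, as for 13.8% of all probes. Another 2, Sprr2a2 (-0.08) and the dimmer Sprr2a3 probe (-0.40), were below on both, as were 11.2% of all probes. The difference of Sprr2i was 1.30 (between 0.92 and 1.68 over the pairs of arrays). That of Sprr2j-ps was 3.36 (between 2.38 and 4.34), but its probe was above background on 1 of 2 arrays in both samples of WT mice and in the vehicle sample of KO mice. The difference of Sprr2e was 0.43 and lay within the spread of its arrays. None of these differences was tested, since there was 1 pair of RNA samples for each genotype and time, and the ratios chose the family.

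Between the times, the ratios in WT mice were higher at 60 than at 30 min by a median of 0.94 on the log2 scale, with 11 of 13 probes above on both arrays, as for 14.9% of all probes. Sprr2f is again among the 11, and without it and Sprr2a1 the count was 10 of 11. In KO mice the median difference was 0.45, with 8 of 13 probes above on both arrays, as for 22.2% of all probes. There the difference was 2.12 for Sprr2i (between 1.67 and 2.57 over the pairs of arrays) and 1.91 for Sprr2j-ps (between 0.36 and 3.46). The vehicle signal of Sprr2j-ps was above background on 1 of 2 arrays at both times. Sprr2g, at 0.13, differed by less than its arrays did.

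The levels in vehicle samples give the state of the family without PACAP. Over the 13 probes the median level difference of KO over WT mice was -0.01 at 30 min and 0.12 at 60 min in vehicle samples, and 0.10 and 0.71 in PACAP samples. Counts are given without Sprr2a1, which was never above background. Of the 12 others, 5 were higher and 7 lower in KO mice in the vehicle samples at 30 min, and 9 higher and 3 lower at 60 min. In PACAP samples 9 were higher and 3 lower at 30 min, and 12 of 12 were higher at 60 min. Of all probes, 52.5% and 47.7% were higher in KO mice in the vehicle samples, and 50.01% and 47.8% in the PACAP samples. The median size of the difference, whatever its sign, was 0.27 and 0.15 in the vehicle samples and 0.30 and 0.80 in the PACAP samples of the 12 probes, largest 60 min after PACAP. Over all probes the signed medians lay between -0.01 and 0.01. The median size over all probes was not taken, so the sizes above have no background beside them. Single probes went further in the vehicle samples, where the brighter Sprr2a3 probe was 1.71 higher in KO mice at 60 min and Sprr2i 0.97 lower in KO mice at 30 min.

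The other small proline-rich genes lie in the same complex. Of Sprr1a, Sprr1b, Sprr3 and Sprr4, 0 were counted in any comparison. The ratio of Sprr3 was listed as exactly 1 at 30 min in both genotypes, so at that time the count rests on the other 3 genes. Their medians at 30 and 60 min were 1.01-fold and 1.16-fold in WT mice, and 1.12-fold and 1.38-fold in KO mice, with the brightest probe standing for each gene here and in the lists below. The difference between these counts and those of the family was not tested.

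Of 38 genes of the cornified envelope and late differentiation, 1 and 3 were up-regulated at 30 min in WT and KO mice and 3 and 2 at 60 min, and 0 were down-regulated. Their medians were between 0.973-fold and 1.09-fold, and those of the 13 Sprr2 probes between 0.949-fold and 2.14-fold. The difference between the list and the family was not tested. Lce3a, a late cornified envelope gene of the kind tied to barrier repair, was 6.24-fold in KO mice at 30 min, 2.95-fold in WT mice and 9.84-fold in KO mice at 60 min, and 0.596-fold in WT mice at 30 min. Lce3e was 2.14-fold in KO mice at 60 min. Lce3b, Lce3c, Lce3d and Lce3f were not counted. In KO mice they lay between 1.36-fold and 1.80-fold at 30 min and between 1.57-fold and 1.93-fold at 60 min. In WT mice they lay between 0.796-fold and 1.07-fold. Tchh, the trichohyalin of hair follicle cells, reached 2.21-fold in WT mice and 2.51-fold in KO mice at 30 min and 5.71-fold in WT mice at 60 min, but was 0.911-fold in KO mice at 60 min. Tchhl1, its relative, was 2.10-fold in KO mice at 30 min, 3.24-fold in WT mice at 60 min and 0.902-fold in KO mice at 60 min.

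Krt6a, Krt6b, Krt16 and Krt17 are keratins of wounded and stressed epidermis. None of the 4 was counted in WT mice at 30 min, 2 in KO mice at 30 min, 3 in WT mice at 60 min and 4 in KO mice at 60 min. Krt16 and Krt17 were counted in all comparisons but that of WT mice at 30 min, and Krt6a was counted in KO mice at 60 min alone. The medians of the 4 were 0.879-fold, 2.09-fold, 2.15-fold and 3.53-fold in that order. Krt16 was 5.38-fold in KO mice at 60 min. Krt6b was 7.68-fold there by its brighter probe and 3.06-fold by the other. The Krt6b probes differed in 2 other comparisons too. The other probe was counted in KO mice at 30 min, at 2.13-fold, and the brighter one was not, at 1.97-fold. In WT mice at 60 min the brighter one was counted, at 2.20-fold, and the other was not, at 1.71-fold.

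**Figure D4:**
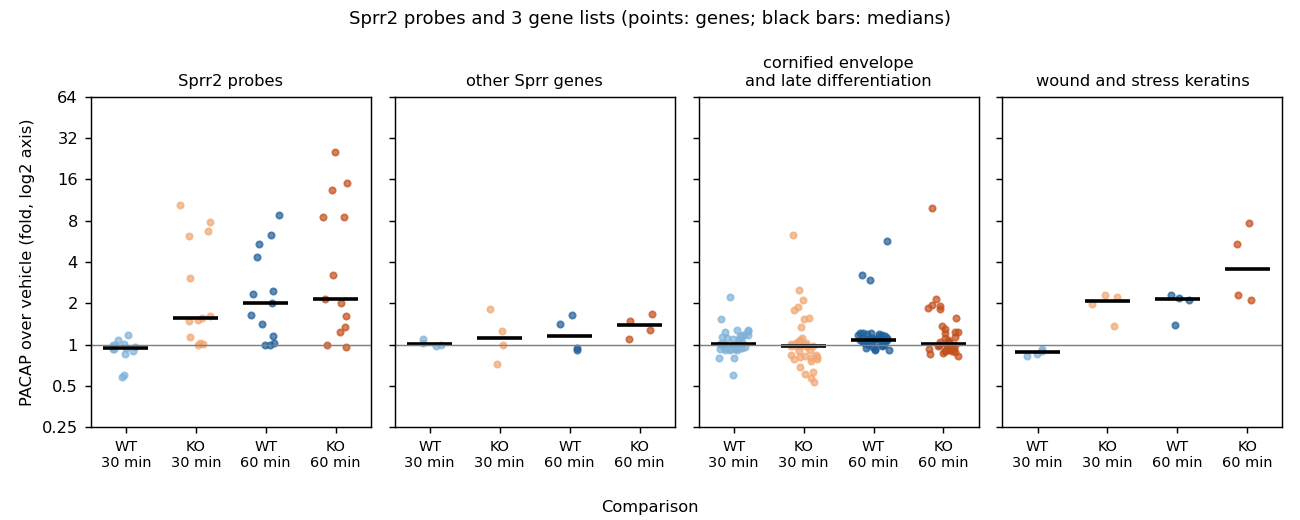
PACAP over vehicle, on a log2 axis of fold, for the 13 Sprr2 probes and for 3 gene lists by their brightest probes, in the 4 comparisons. Each point is a probe or gene and black bars are medians; the 4 wound and stress keratins have medians between 0.879-fold and 3.53-fold, while the other Sprr genes and the cornified envelope genes have medians between 0.973-fold and 1.38-fold.

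Signals and factors known to act on Sprr2 genes were listed as well, and 22 of 24 had a probe with a level. Of these 22, 2 were up-regulated at 30 min in WT and in KO mice. At 60 min 0 were so in WT mice and 1 in KO mice, and 0 were down-regulated at either time. The ratio of Ifng was listed as exactly 1 at 30 min in both genotypes. At 30 min the cytokine Il6 reached 4.47-fold in WT mice and 3.80-fold in KO mice, and Il1b 2.10-fold and 4.76-fold. In WT mice at 30 min 0 Sprr2 probes were up-regulated, and the part of these cytokines in the Sprr2 ratios was not tested. Il19, a cytokine made by keratinocytes, was 2.08-fold in KO mice at 60 min by its brighter probe and 15.9-fold by the dimmer one. The ratio of the dimmer probe was listed as exactly 1 in WT mice at both times, so its fold may rest on a signal near background.

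Among 1841 probes of other named genes with a range of at least 1 on the log2 scale, likeness to the family was taken as Pearson's r with the mean level of 12 Sprr2 probes over the 8 RNA samples. The 8 genes with the highest r were Lce3a (0.95), Krt17 (0.94), Stfa2 (0.93), Tmem45b (0.93), Saa2 (0.92), Gm5476 (0.91), Gm5478 (0.91) and Stfa1 (0.89). The 8 samples come from 8 arrays on 2 slides and share their normalization, so these values describe the libraries at hand. The genes were picked for their levels in these samples, so that their ratios follow in part from the choice and are a description. None of the 8 genes was counted in WT mice at 30 min, where they lay between 0.596-fold and 0.987-fold. At 30 min 7 of them were up-regulated in KO mice, Gm5476 being the exception at 1.96-fold. At 60 min 3 of them (Lce3a, Krt17 and Saa2) were up-regulated in WT mice and 7 in KO mice, where Tmem45b was the exception at 1.91-fold. Stfa1 and Stfa2, which encode stefin A inhibitors of cysteine proteases, were 3.04-fold and 3.37-fold in KO mice at 30 min but 1.12-fold and 1.11-fold in WT mice at 60 min, where Sprr2e to Sprr2g were up-regulated, and 2.97-fold and 3.74-fold in KO mice at 60 min. Within the family, Sprr2e (0.97) and Sprr2j-ps (0.94) followed the mean of the other Sprr2 probes most closely, and Sprr2a2 (-0.06) least.

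Genes of other tissues in the paw moved in the same comparisons. Of 7 hair shaft genes, 5 were up-regulated in KO mice at 30 min and 6 in WT mice at 60 min, with medians of 2.57-fold and 4.89-fold. In KO mice at 60 min, where the median Sprr2 ratio was highest, 0 of the 7 hair shaft genes were counted and their median was 0.726-fold. Their median in WT mice at 30 min was 1.18-fold. The log2 of their summed level went from 11.38 (vehicle) to 12.72 (PACAP) in KO mice at 30 min, from 11.68 to 13.69 in WT mice at 60 min, and from 14.24 to 13.78 in KO mice at 60 min. Of 9 skeletal muscle genes, 4 were up-regulated in WT mice at 30 min and 3 down-regulated in KO mice at 30 min, with medians of 1.81-fold and 0.515-fold, and their summed log2 level went from 16.25 to 17.24 and from 16.92 to 16.08. Medians of the muscle genes at 60 min lay at 0.964-fold for WT mice and 1.03-fold for KO mice. In KO mice at 30 min the suprabasal keratins Krt1 and Krt10 were down-regulated, at 0.455-fold and 0.365-fold, in the comparison where Sprr2e, Sprr2f and Sprr2g were up-regulated, and the summed log2 level of the 4 suprabasal genes went from 17.73 to 16.71. Other keratinocyte genes were under 1-fold there without being counted. By their brightest probes the 3 basal markers had a median of 0.678-fold, with 0 of the 3 above 1. Their summed log2 level was 16.81 (vehicle) and 16.34 (PACAP). Their other probes differed, with Krt5 at 0.878-fold and Trp63 at 0.591-fold, 1.00-fold and 1.05-fold. Krt9 was 0.628-fold. Of the 38 cornified envelope and late differentiation genes, 23 were under 1-fold and 15 above, while Krt16 and Krt17 were up-regulated, so keratinocyte genes did not move one way. The part of these genes in the Sprr2 ratios was not tested. Of 5 hepatocyte genes, 4 were down-regulated in WT mice at 60 min. Their median there was 0.267-fold and their summed log2 level went from 10.59 to 9.29. Of 8 neutrophil genes 0 were counted in any comparison, and of 5 cartilage and bone genes 1 was down-regulated at 30 min in each genotype. None of these lists had a member that was below background on every array. The part of these tissues in the Sprr2 ratios was not tested.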

How the data were processed

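Each array was scanned by the authors and extracted with Agilent Feature Extraction, version 12.0.3.1 per the file headers. Deposited log10 values are red over green ratios, background-corrected and LOWESS-normalized by the authors' software, which sets a ratio to 0 where neither channel is measured. The deposited p-value of each spot comes from the software's error model for 1 array. The deposited intensity values are mean and processed signals with local backgrounds. The deposited flags mark control, outlier, saturated and well-above-background spots.

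Here control and outlier spots were left out, ratios were turned to PACAP over vehicle, changed to log2 and averaged over spots and both arrays. Levels are log2 intensities after normexp correction (offset 50), loess within and Aquantile between arrays, averaged over the dye swap, with limma 3.58.1 in R 4.3.3. Other steps used Python 3.11.15 with numpy 2.4.6 and pandas 2.3.3. The counting rule was tested on simulated data.

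Samples were grouped by the labels. All Sprr2 probes are named, together with the 8 genes most like their mean, up to 4 counted members of each gene list, and Adcyap1r1. Other members are named where a value rests on them. The family, the gene lists, the marker lists and the motifs were chosen with earlier results of these data known. Alternatives covered the ratio, its centring, the p filter, the fold threshold, single arrays, dim probes and the normalization of levels. Precision is limited by the small number of arrays.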

Additional observations from a re-analysis of the deposited data

Results flagged for a closer look

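Sprr2i had opposite directions with PACAP in different groups, each with a Feature Extraction p under 0.01 on both arrays. At 30 min it was 0.577-fold in WT mice and 3.06-fold in KO mice, a log2 difference of 2.41. The PACAP samples of the genotypes differed little then, with a log2 level 0.10 higher in KO mice, while in the vehicle samples it was -0.97 for KO minus WT mice. Between the times, WT mice went from 0.577-fold at 30 min to 5.41-fold at 60 min, a log2 difference of 3.23. Neither difference was tested, since each group is 1 pair of RNA samples, and a check for outlying samples within a group was not possible for the same reason.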

How the results depend on the processing

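Of 156 values under other settings, 133 stayed within 1.5 times of a count or within the spread of the arrays for a median. Another 21 moved further and 2 changed sign. The 133 include 12 values each for the ratios as listed for the whole series, for outlier spots kept and for centring each array. These had little room to move. The listed ratios are the same numbers, 0 Sprr2 spots carried an outlier flag, and the median over all probes was 0 in each comparison. With normexp, loess and Aquantile ratios 8 values stayed and 4 moved. No Sprr2 probe was up-regulated in WT mice at 30 min under any setting tried, and with a 1.5-fold threshold 2 were down-regulated there. In KO mice at 30 min, 3 rather than 5 were up-regulated with normexp, loess and Aquantile ratios, and also 3 when only the 9 probes above background in both channels on both arrays entered. With normexp, loess and Aquantile ratios the median log2 ratio was -0.000447 in WT mice at 30 min, 0.41 in WT mice at 60 min and 0.91 in KO mice at 60 min. At 60 min in WT mice it was 0.75 over the 8 probes above background, 1.11 with the brightest probe per gene name and 1.22 without Sprr2a1 and Sprr2a2, a setting chosen after seeing the data. In KO mice at 60 min the latter 2 gave 1.39 and 1.68. On single arrays the median was between -0.0805 and 0 in WT and between 0.48 and 0.69 in KO mice at 30 min, and between 0.99 and 1.02 in WT and 1.06 and 1.14 in KO mice at 60 min. The median level difference of KO over WT mice in vehicle samples at 30 min became 0.0148 without normalization between arrays and lay between -0.13 and 0.000716 on single arrays, so its sign is not settled. At 60 min it became 0.29 without normalization between arrays, and was between 0.0654 and 0.113 on single arrays. In PACAP samples at 30 min, where it was 0.10, it became 0.24 with the brightest probe per gene name, 0.16 with an offset of 16 and 0.18 without normalization between arrays, and lay between 0.0571 and 0.181 on single arrays. At 60 min it was between 0.69 and 0.76 on single arrays, 0.84 with an offset of 16, 0.92 without normalization between arrays and 0.80 with the brightest probe per gene name. The causes were not tested.

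No paired analysis was possible because the shared replicate numbers mark the 2 dye orientations of 1 pair of RNA samples, which are averaged and count as 1 replicate. Low signal over background limits Sprr2f, Sprr2j-ps, Sprr2e and Sprr2g in vehicle samples.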
